A study of Homo sapiens with 6 samples.

Results

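The 10 genes described here are targets of the transcription factor ATF4 in the response to amino acid shortage: ASNS, PSAT1, PHGDH, SLC7A11, CHAC1, TRIB3, PPP1R15A, SESN2, DDIT3 and CEBPB. They were taken by name, as all probe sets whose platform annotation lists one of them. This gave 18 of the 54675 probe sets on the array, of which 17 named only the member and 1 named PHGDH beside MZT2A and MZT2B. Of the 19775 genes represented by probe sets for a single gene, 10 were members. RNA came from tumours grown from HT-29, an established human colon adenocarcinoma line, injected into both femoral regions of Balb/c (nu/nu) mice, an athymic strain without normal T cells, at an age of 6 to 8 weeks. The treated pool held tumours heated for 30 min by an electromagnetic field (modulated electro-hyperthermia) on day 18 and taken 4 h later, the opposite-side pool held the unheated tumours of the other flank at the same 4 h, and the control pool held control xenografts. Each of the 3 groups was 1 pool of RNA on 2 technical arrays, so the 6 arrays carry no spread between animals, no test between conditions was possible, and the number of arrays limits the precision. In such bulk tissue, fewer cells of one type and less RNA per cell cannot be told apart.

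Cells short of amino acids, burdened with misfolded protein in the endoplasmic reticulum (ER) or short of heme activate kinases that phosphorylate the translation factor eIF2 alpha. Bulk translation falls, while the mRNA of ATF4 is translated more, so the ATF4 transcript itself need not change. ATF4 pairs with C/EBP proteins on composite DNA elements and induces amino acid synthesis enzymes, amino acid transporters and feedback regulators. Tumour cells use the same genes to make serine and asparagine and to import cystine.

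Of the members, 9 had promoter entries in the RefSeq table (GRCh38.p14, 250 bases before to 50 after a start site), all except SLC7A11. The core of the C/EBP-ATF response element, searched as TGATGNAA on both strands, occurred in the entries of 2 of these 9 members, ASNS and CHAC1, and in 3.62% of all 35116 promoters of that length. The members are counted by gene and had 14 entries, some genes having several, while the share counts entries. The count and the share are therefore not on the same footing. Both stretches are printed to show the kind of site that ATF4 binds, in 1 member that was detected and 1 that was not. Capitals mark the match, and each line runs 5′ to 3′ on the strand of its gene, upstream of the start site. The ASNS stretch lies at chr7:97872429-97872516 on the minus strand, with the match beginning 68 bases before the start of one of 2 ASNS entries. The CHAC1 stretch lies at chr15:40953222-40953309 on the plus strand, with the match on the other strand, beginning 209 bases before the start.
ASNS: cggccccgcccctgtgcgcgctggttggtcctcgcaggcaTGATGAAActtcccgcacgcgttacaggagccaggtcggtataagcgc
CHAC1: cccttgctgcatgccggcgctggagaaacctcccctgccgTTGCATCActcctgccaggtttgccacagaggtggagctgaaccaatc

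The heat shock element core, searched as GAANNTTC, which reads the same on both strands, occurred in 1 of the 9 members, again ASNS, and in 6.77% of all promoters. Here too members are counted by gene and the share by entry. Its match, GAAACTTC, overlaps the ASNS site printed above and shares its last letters. The absence of a match in the other entries says only that these letters were not in those windows.

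Values are on the log2 scale of the deposited table, and differences are those of pool means. A gene was called detected at a pool mean of 5 or more, and 7 of the 10 members reached it. A gene was called higher or lower at a difference of at least 0.3 (1.23-fold) where each of the 4 pairs of arrays pointed the same way and the higher pool reached 5 on both of its arrays. A 2-fold rule required a difference of 1 in the same way. The 2 arrays of a pool differed by a median of 0.046 to 0.055 over detected genes, and 0.952% to 1.97% of detected genes differed by 0.3 or more between them.

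**Figure D1:**
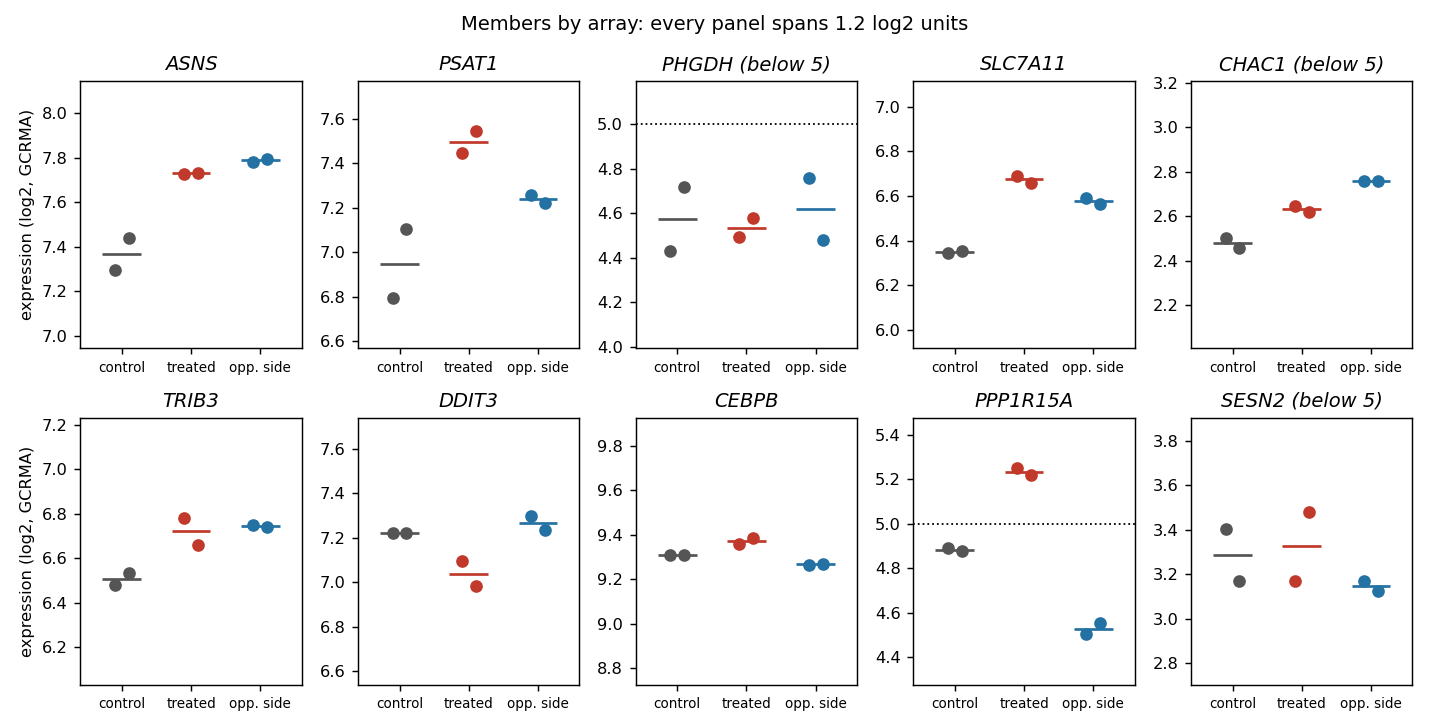
Expression of the representative probe set of each member (log2, vertical axis) on the 2 arrays of the control, treated and opposite-side pools (points), with the pool mean as a line, a dotted line at 5 and all panels spanning the same log2 range. ASNS, PSAT1, SLC7A11 and TRIB3 lie above control on all 4 arrays of both tumours of treated animals, and PPP1R15A lies above control in the treated pool and below it in the opposite-side pool.

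The amino acid synthesis enzymes ASNS and PSAT1 stood higher in treated animals, and for ASNS both tumours were alike. ASNS, which makes asparagine from aspartate and carries the element printed first, read 7.30 and 7.44 on the control arrays, 7.73 and 7.73 on the treated arrays and 7.78 and 7.80 on the opposite-side arrays. All 4 arrays of treated animals lay above both control arrays. The difference was 0.36 for treated minus control (1.29-fold) and 0.42 for opposite side minus control (1.34-fold). Between the 2 tumours of treated animals ASNS differed by -0.06, the heated tumour being the lower on both arrays. The other ASNS probe set, 241082_at, had the table's lowest value, 2.37, on every array, so the ASNS result rests on 205047_s_at. Without control array 1 treated minus control was 0.29, short of the rule.

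PSAT1, the transaminase of the serine pathway, showed the largest difference of the members from control in the treated pool. It read 6.80 and 7.10 in control, 7.45 and 7.54 in treated and 7.26 and 7.22 in opposite-side tumours. The pools did not overlap, with control lowest and treated highest. Treated minus control was 0.55 (1.46-fold), and 241 of 7204 detected genes (3.35%) were as far or further above. Opposite side minus control was 0.29 (1.22-fold), and treated minus opposite side was 0.26, both below the minimum of 0.3. The 2 control arrays differed by 0.31 for PSAT1, a gap that 0.909% of genes detected in control reached, so that treated minus control ranged from 0.34 to 0.75 over the array pairs. The second PSAT1 probe set, 220892_s_at, lay at 2.72 in control, 2.72 in treated and 2.81 in opposite-side tumours.

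PHGDH, the first enzyme of serine synthesis, was not detected by its own probe set, 201397_at. It read 4.43 and 4.72 in control, 4.49 and 4.58 in treated and 4.76 and 4.48 in opposite-side tumours, and the pools overlapped. The probe set shared by PHGDH, MZT2A and MZT2B lay far higher, at pool means of 9.81, 9.52 and 9.63 in the same order. It was lower than control by 0.29 in treated and by 0.18 in opposite-side tumours, and which of the 3 genes it reports was not resolved.

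The cystine transporter SLC7A11, which supplies cysteine for glutathione, stood above control in both tumours of treated animals and passed the 0.3 rule in the treated pool only. It read 6.34 and 6.35 in control, 6.69 and 6.66 in treated and 6.59 and 6.56 in opposite-side tumours. The pools did not overlap, and treated arrays were the highest. The differences from control were 0.33 (1.25-fold) in treated and 0.23 (1.17-fold) in opposite-side tumours. The second detected probe set, 217678_at, ran in the same order, with pool means of 5.50 in control, 5.98 in treated and 5.78 in opposite-side tumours. The remaining probe set, 207528_s_at, stood at 2.52 in all pools. CHAC1, which degrades glutathione and carries the other printed element, was not detected. Its pool means of 2.48 in control, 2.63 in treated and 2.76 in opposite-side tumours lay near the lowest value of the table.

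Among the feedback regulators, TRIB3 followed both tumours and PPP1R15A did not. TRIB3, a pseudokinase that restrains ATF4 and the kinase AKT, read 6.48 and 6.54 in control, 6.78 and 6.66 in treated and 6.75 and 6.74 in opposite-side tumours. It was above control by 0.21 (1.16-fold) in treated and by 0.24 (1.18-fold) in opposite-side tumours, neither past the minimum of 0.3. Treated and opposite-side arrays overlapped, with a difference of -0.02. The second TRIB3 probe set stood at 3.03 on every array.

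PPP1R15A (GADD34), the phosphatase subunit that reverses eIF2 alpha phosphorylation, read 4.89 and 4.88 in control, 5.25 and 5.22 in treated and 4.50 and 4.55 in opposite-side tumours. Treated arrays were above, and opposite-side arrays below, both control arrays. Treated minus control was 0.35 and opposite side minus control -0.36. Treated minus opposite side was 0.71. Only the treated pool reached 5, with means of 4.88 in control and 4.53 on the opposite side, so this member entered the counts through the pool in which it was high, and its fold against 5 is at least 1.17. Its second probe set, 202014_at, lay at 3.56 in control, 3.65 in treated and 3.59 in opposite-side tumours, and with both probe sets averaged it was not detected in any pool and differed by 0.22 for treated minus control and 0.38 for treated minus opposite side. SESN2, a sestrin that restrains the growth kinase complex mTORC1, was not detected, with 3.13 to 3.48 over the 6 arrays for one probe set and 3.10 to 3.22 for the other.

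Neither transcription factor among the members passed the 0.3 rule. DDIT3 (CHOP), a bZIP factor linked to cell death under ER stress, read 7.22 and 7.22 in control, 7.10 and 6.98 in treated and 7.30 and 7.23 in opposite-side tumours. Treated arrays were the lowest, by 0.18 against control and by 0.23 against the opposite side, which is short of the minimum. Opposite-side tumours were above control by 0.05. CEBPB, a C/EBP partner of ATF4, read 9.31 and 9.31 in control, 9.36 and 9.38 in treated and 9.27 and 9.27 in opposite-side tumours. The pools did not overlap, but the largest difference between them was 0.10.

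**Figure D2:**
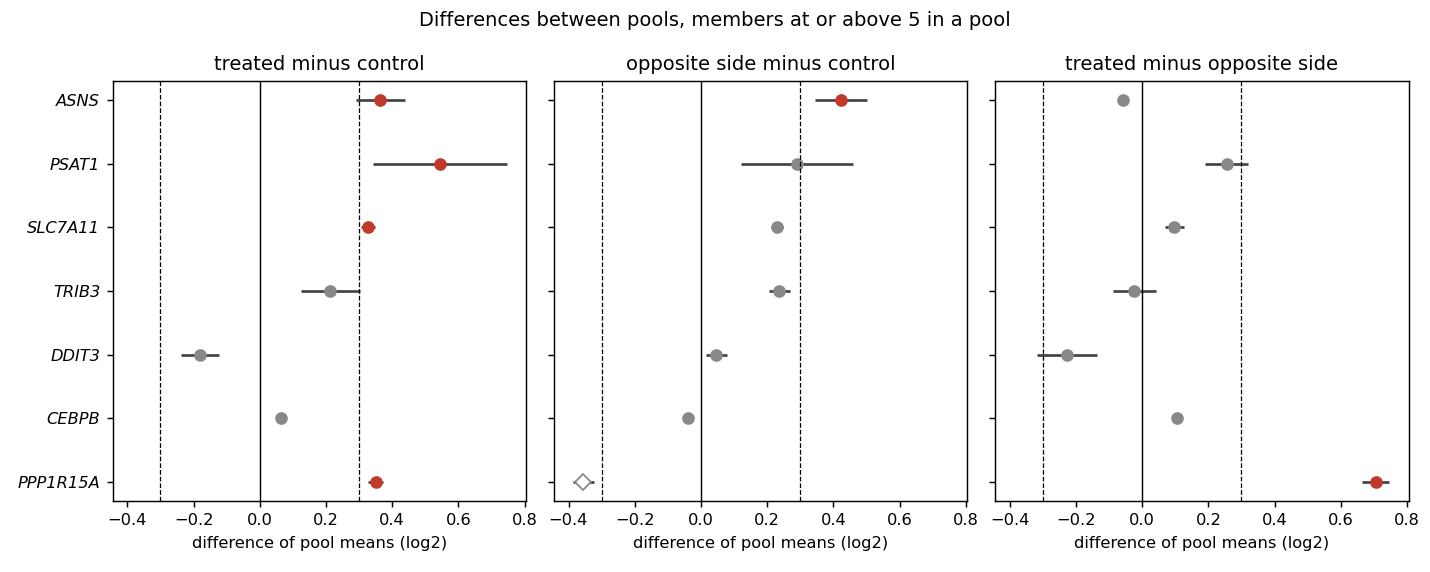
Difference of pool means (log2, horizontal axis) for the 7 detected members in the 3 comparisons, with a bar from the lowest to the highest of the 4 array-to-array differences and dashed lines at -0.3 and 0.3. Red points passed the 0.3 rule, grey points did not, and the open diamond is PPP1R15A where neither pool reached 5. ASNS, PSAT1, SLC7A11 and TRIB3 lie right of 0 in both comparisons with control, while in treated minus opposite side only PPP1R15A lies beyond 0.3.

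Counted together, 4 of the 7 members detected in treated or control were higher in the treated pool (ASNS, PSAT1, SLC7A11 and PPP1R15A), where 11.5% of all detected genes were, and 0 were lower, against 11.4%. The median was 0.33 over the 7 detected members, 0.18 over all 10 members and -0.02 over all detected genes. No member passed the 2-fold rule, which 0.722% of detected genes did. PPP1R15A counted as detected only through the treated pool.

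In the opposite-side pool 1 of 6 detected members was higher than control, namely ASNS, against 8.99% of detected genes, and 0 were lower, against 13.5%. PSAT1, at 0.29, fell just short and passed when control array 2 or opposite-side array 2 was left out, which made 2 members, while without control array 1 it was 0.14. The median was 0.23 over the 6 members, 0.14 over all 10 and -0.02 over all detected genes. The 2-fold rule was passed by no member and by 0.404% of genes. Both comparisons use the same control arrays, so they are not independent.

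The direct comparison of the heated with the unheated tumours of the same animals does not use control. Here 1 of 7 detected members was higher, PPP1R15A, where 11.1% of detected genes were, and 0 were lower, against 6.68%. PPP1R15A was detected through the treated pool alone, so it could enter this count as higher only, and at a detection level of 6 the count was 0. Leaving out treated array 1 made it 2, with PSAT1 at 0.30. The median was 0.10 over the 7 members, 0.04 over all 10 and 0.01 over all detected genes, and 0 members and 0.335% of genes passed the 2-fold rule. As to whether the shift was local, ASNS and TRIB3 stood above control by like amounts on both sides. SLC7A11 and PSAT1 stood above control on both sides. They read higher in the heated tumour by 0.10 and 0.26, short of the minimum, and 33.6% and 14.5% of detected genes were as far or further above. With the spike-in scaling described below the gap of SLC7A11 turned to -0.09. PPP1R15A stood above control in the heated tumour and below it on the other side. DDIT3 stood below control in the heated tumour and 0.05 above it on the other side. In the same directions 23.3% and 36.2% of detected genes were as far or further from control as DDIT3.

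Some other measurements moved with the split between control and treated animals, and some differed between the 2 sides. ACTB and GAPDH are each covered by control probe sets along the transcript, whose 5′ signal depends on RNA quality. The ACTB 5′ probe set was above control by 1.12 in treated and by 1.28 in opposite-side tumours, whereas its 3′ end differed by 0.23 and 0.15. For GAPDH the 5′ end differed by -0.46 and -0.01 and the 3′ end by -0.03 and 0.00. Of 9 fibroblast markers 3 were detected and all 3 were above control on both sides, with TAGLN at 1.66 and 1.04 and VIM at 1.14 and 1.26 past 2-fold. Without the _x_at and _s_at probe sets TAGLN was at 0.32 and 0.38 and passed neither rule. The defining markers DCN, LUM and PDGFRB were near the lowest value of the table. The summed linear level of the 9 markers was 349 in control, 772 in treated and 649 in opposite-side tumours. Of 12 skeletal muscle markers 3 were detected, with ACTA1 at 2.17 and 1.00, MYL11 at 1.60 and 0.84 and TNNT3 at 0.06 and 0.00. ACTA1 was below 5 in control (3.10) and opposite-side tumours (4.11). The summed level of the 12 was 143, 249 and 181 in that order, while MYH1, MYL1 and CKM were near the lowest value. Of the endothelial and red blood cell markers 0 were detected, and of 6 leukocyte markers 1 was, LYZ, at 0.23 and 0.15. LYZ read 11.59 in control while PTPRC, CSF1R and CD14 were near the lowest value. The host was mouse while the probe sets name human genes. A marker that was not detected therefore does not show that host cells were absent, and the sums do not measure host cells. HT-29 epithelial markers were detected for 7 of 11, among them EPCAM, KRT8, KRT18 and KRT20 at 12.14 or more in control. These 4 were above control on both sides, EPCAM by 0.16 and 0.15, KRT8 by 0.19 and 0.20, KRT18 by 0.12 and 0.10 and KRT20 by 0.27 and 0.28. The other detected ones did not follow: LGALS4 differed by -0.09 and -0.09, VIL1 by 0.05 and -0.02 and CEACAM5 by -0.13 and 0.11. CDH17, not detected at 4.81 in control, differed by -0.33 and -0.09, while CDX1, CDX2 and GPA33 were near the lowest value. The part of any of these in the members' differences was not tested.

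The 40 detected spike-in control probe sets, RNA added in fixed amounts, differed by a median of 0.11 for treated minus control, -0.18 for opposite side minus control and 0.33 for treated minus opposite side. Setting all arrays to 1 spike-in median shifted every difference by -0.01, 0.18 and -0.19 respectively. These shifts follow from the spike-in median of each array, not from the median of the differences. For treated minus control and treated minus opposite side they did not mirror the medians above, so the spike-in scale is itself uncertain. On that scale 4 members (ASNS, PSAT1, SLC7A11 and TRIB3) were higher in opposite-side than in control tumours, but so were 24.6% of detected genes, with 4.92% lower. In treated minus opposite side PPP1R15A was then higher by 0.52 and DDIT3 lower by 0.42, where 3.39% of genes were higher and 25.4% lower, and the differences of SLC7A11 and CEBPB turned to -0.09 and -0.09. For treated minus control the members called were the same 4, beside 10.8% of genes higher and 12.4% lower.

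Among the upstream regulators ATF4 itself did not pass the 0.3 rule. It read 10.96 and 10.93 in control, 10.91 and 10.84 in treated and 11.04 and 11.01 in opposite-side tumours, so that it was below control by 0.07 in treated and above it by 0.08 in opposite-side tumours. Of the eIF2 kinases, EIF2AK4 (GCN2), the sensor of uncharged tRNA, was higher in opposite-side tumours by 0.44 and differed by 0.20 in treated ones. Without the _x_at and _s_at probe sets these became 0.02 and 0.03, so the call was lost, and its treated minus opposite side difference of -0.23 turned to 0.01. EIF2AK2 (PKR) was higher in treated tumours by 0.32 (0.28 without control array 2 or treated array 1 and 0.16 with probe sets averaged, both short of the rule) and differed by 0.30 (just short of the minimum) on the opposite side, EIF2AK3 (PERK) by 0.02 and -0.04, and EIF2AK1 (the heme-regulated kinase) by -0.23 and -0.17. PPP1R15B, the constitutive partner of PPP1R15A, was higher by 0.36 in treated and differed by 0.28 in opposite-side tumours. ATF5, itself translated under eIF2 phosphorylation, differed by -0.24 in treated and was lower by 0.32 in opposite-side tumours. That call was lost without control array 2 (-0.28) or opposite-side array 2 (-0.26). ATF5 was detected through control alone, at 5.06 against 4.82 in treated and 4.74 in opposite-side tumours, so against control it could be called only as lower. IMPACT, an inhibitor of GCN2 activation, differed by -0.16 and 0.08. In all, 2 of 12 detected genes of this list were higher and 0 lower in treated tumours, beside 11.5% and 11.4% of all detected genes, and 1 was higher and 1 lower on the opposite side, beside 8.99% and 13.5%.

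Among the amino acid transporters linked to ATF4, 1 passed the 0.3 rule on both sides. SLC38A2 (SNAT2), a carrier of small neutral amino acids that adapts to their shortage, read 9.35 and 9.37 in control, 10.04 and 10.08 in treated and 10.01 and 10.05 in opposite-side tumours. All 4 arrays of treated animals lay above control, by 0.69 in treated and 0.67 in opposite-side tumours, and both sides overlapped. Among 7 detected transporters 3 were higher in treated tumours, the others being SLC7A5 (LAT1, the large neutral amino acid exchanger) at 0.42 and SLC7A1 (the cationic amino acid carrier) at 0.31, and 0 were lower, beside 11.5% and 11.4% of all detected genes. Without treated array 2 SLC7A5 was at 0.27, short of the rule. SLC7A1 read 8.708 and 8.757 in control and 9.025 and 9.058 in treated tumours, so its call lay just past the minimum. On the opposite side 1 was higher, beside 8.99%, and 1 was lower, beside 13.5%, namely SLC43A1 at -0.47 (-0.30, just short, with the spike-in scaling). The list medians were 0.10 in both comparisons.

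**Figure D3:**
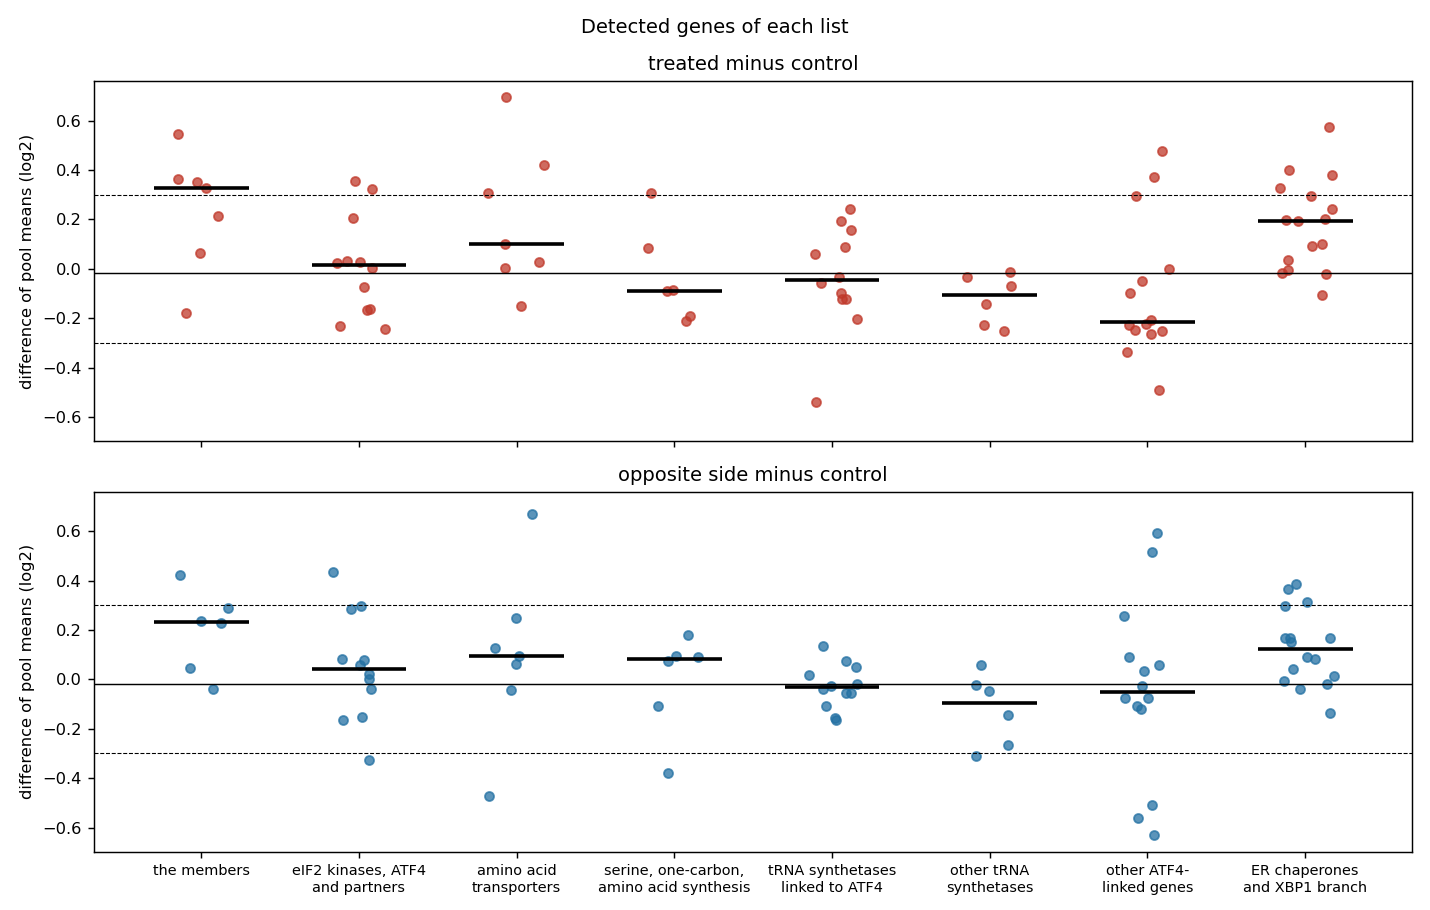
Difference of pool means (log2, vertical axis) for every detected gene (points) of the members and 7 further lists (horizontal axis), for treated minus control above and opposite side minus control below, with the list median as a thick bar, the median of all detected genes as a thin line and dashed lines at -0.3 and 0.3. Over detected genes the members' medians of 0.33 and 0.23 lie above those of the 7 other lists in each panel, and both tRNA synthetase lists have medians below 0. Over all 10 members, detected or not, the medians were 0.18 and 0.14, beside 0.20 and 0.12 for the ER chaperone list. The members' place above that list in treated minus control thus depends on the detection filter.

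Of the tRNA synthetases, many of which are standard ATF4 targets, none was called higher than control. The list linked to ATF4 held 12 detected genes (11 synthetases and the tRNA exporter XPOT). In treated tumours 0 were higher and 1 was lower, beside 11.5% and 11.4% of all detected genes. The lower gene was SARS1 (seryl-tRNA synthetase) at -0.54. On the opposite side 0 were called in either direction, beside 8.99% higher and 13.5% lower. With so few genes, these counts do not set the list apart from those shares. Both treated arrays lay above both control arrays for 5 of the 12, by up to 0.24, and below them for 5. The share of all detected genes without overlap was not computed, so these 2 counts are not a trait of the list. CARS1 (cysteinyl-tRNA synthetase) differed by -0.20 in treated and 0.14 in opposite-side tumours, the latter turning negative when probe sets were averaged, and XPOT by 0.24 and -0.06. The median was -0.04 in treated and -0.03 in opposite-side tumours. Of 6 detected synthetases not usually linked to ATF4, 0 were called in treated tumours, beside the same shares. On the opposite side 1 was called, VARS1, lower at -0.31 (-0.23 without control array 2 or opposite-side array 1), beside 8.99% higher and 13.5% lower. FARSB differed by -0.25 and -0.14 and FARSA by -0.14 and -0.27. FARSA reached -0.44 in treated tumours with another way to pick the probe set. The medians were -0.11 and -0.09.

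The further genes of serine, one-carbon and amino acid synthesis were mixed. Of 6 detected, 1 was higher and 0 lower in treated tumours, beside 11.5% and 11.4% of all detected genes. On the opposite side 0 were higher and 1 was lower, beside 8.99% and 13.5%. GOT1 (aspartate transaminase) was higher by 0.31 in treated tumours (0.29 without control array 1 and 0.28 without treated array 2). PYCR1 (proline synthesis) was lower by 0.38 in opposite-side tumours and differed by -0.21 in treated ones. The mitochondrial serine enzyme SHMT2 differed by -0.19 and -0.11, and reached -0.54 and -0.335 with another way to pick the probe set. The medians were -0.09 in treated and 0.08 in opposite-side tumours. Of 14 other ATF4-linked genes 2 were higher and 2 lower in treated tumours, beside the same shares of all detected genes. On the opposite side 2 were higher and 3 lower, again beside 8.99% and 13.5%. With so few genes, these counts do not set the list apart from those shares. GDF15, a secreted stress cytokine, was lower by 0.49 and 0.63, but both differences became 0 without the _x_at and _s_at probe sets. The zinc exporter SLC30A1 was higher by 0.48 and 0.59. NARS2, the mitochondrial asparaginyl-tRNA synthetase, differed by -0.26 in treated tumours and was lower by 0.56 on the opposite side. The medians of that list were -0.21 in treated and -0.05 in opposite-side tumours.

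Of 16 ER chaperones and genes of the ATF6 and XBP1 branch of the unfolded protein response, all detected, 4 were higher in treated and 3 in opposite-side tumours, beside 11.5% and 8.99% of all detected genes, and 0 were lower in either, beside 11.4% and 13.5%. HSPA5 (BiP), the main ER chaperone, was higher by 0.57 in treated and 0.37 in opposite-side tumours. With probe sets averaged these became 0.37 and 0.13, and the opposite-side call was lost. The transcription factor XBP1 was higher by 0.40 in treated and differed by 0.30 (just short of the minimum) on the opposite side, and the ER co-chaperone DNAJB9 differed by 0.09 and was higher by 0.38 (0.19, short of the rule, without the _x_at and _s_at probe sets). The medians were 0.20 in treated and 0.12 in opposite-side tumours. No gene of the 7 lists passed the 2-fold rule in any of the 3 comparisons. NUPR1, of the list with ATF4 and its partners, was detected in no pool and so could not be called. Its pool means were 4.92 in control, just short of 5, 3.91 in treated and 4.80 in opposite-side tumours. Treated minus control was -1.01 and treated minus opposite side -0.885, both near or below the detection level.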

How the data were processed

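RNA of dissected frozen sections was measured on 6 Affymetrix arrays, 2 technical arrays for each of 3 pools, per the labels. The deposited values are log2 expression per probe set, made by the authors with GCRMA per the submitters' processing notes, with no version given (background correction, quantile normalization, probe set summary). That the scale is log2 follows from the span of the values. Probe sets were named through the platform annotation, updated by Entrez identifier: 41097 named 1 gene (41043 matched), 1801 several and 11777 none. For each gene the probe set that was highest on average across the arrays was used. Pool means were compared by the size rules given in the text, with a median beside each count, and the share of all detected genes past each rule was computed in the same way.

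The members and gene lists were chosen with earlier results of these data known. Named beyond the members were ATF4, the eIF2 kinases, genes past the 2-fold rule and up to 3 further genes of each list with the largest absolute difference in any comparison in which they were detected. SLC7A1, NUPR1, TNNT3 and the epithelial markers were named after their values were seen. Some genes of the lists were not analysed here. Alternatives were other detection levels and minimum differences, no agreement of array pairs, linear averaging, 3 scalings, other ways to pick the probe set, omitting single arrays, and limma with Benjamini-Hochberg adjustment, which compares these pools against array error only. The rules were tested on simulated data. Computations used R 4.3.3 with limma 3.58.1 and Python 3.11.15 with pandas 2.3.3, numpy 2.4.6 and matplotlib 3.10.9.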

Additional observations from a re-analysis of the deposited data

Results flagged for a closer look

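For 6 of the genes named, both treated arrays lay on one side of both control arrays and both opposite-side arrays on the other. The share of all detected genes that split in this way was not computed, so the count does not set these genes apart. Arrays of the same pool lay close together, so small gaps were enough for such a split. In none of them was the difference between conditions tested, since each pool is 1 sample, and limma compared the pools against array error only. Treated minus opposite side was 0.71 for PPP1R15A, -0.23 for DDIT3, 0.10 for CEBPB, -0.15 for ATF4, -0.34 for CARS1 and 0.30 for XPOT. For CEBPB it turned to -0.09 with the spike-in scaling, and that scaling also turned the opposite side minus control differences of CEBPB from -0.04 to 0.13 and of XPOT from -0.06 to 0.12. The opposite side minus control difference of CARS1 turned to -0.06 when probe sets were averaged.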

How the results depend on the processing

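The members higher in treated than in control numbered 4. They numbered 1 at a minimum difference of 0.5 and 3 to 4 with one array left out (3 without control array 1, where ASNS fell short). For opposite side minus control the count of 1 became 4 at a minimum of 0.2, 0 at a minimum of 0.5, 2 with quantile normalization, 4 with the spike-in scaling, 0 without _x_at and _s_at probe sets (where ASNS was represented by a probe set at the lowest value), and 1 to 2 with one array left out. For treated minus opposite side the higher count of 1 became 2 at a minimum of 0.2, 0 at a detection level of 6, 0 with probe sets averaged, and 1 to 2 with one array left out. A lower count of 1 appeared there at a minimum of 0.2 and with the spike-in scaling, and for opposite side minus control at a detection level of 4, which brought in PPP1R15A. The members' median for treated minus control was 0.27 at detection levels of 4 and 6 and without _x_at and _s_at probe sets, 0.29 with probe sets averaged, and 0.29 to 0.34 with one array left out. For opposite side minus control it was 0.14 at a detection level of 4, 0.41 with the spike-in scaling and 0.17 to 0.25 with one array left out. For treated minus opposite side it was 0.037 at detection levels of 4 and 6, 0.040 with probe sets averaged, 0.071 with quantile normalization, -0.092 with the spike-in scaling and 0.082 to 0.102 with one array left out. The marker TAGLN turned to -0.06 for treated minus opposite side without _x_at and _s_at probe sets. Where no reason is given, the cause was not tested.

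The technical replicate numbers did not pair the arrays: over 7003 genes the deviations of same-numbered arrays correlated by 0.01 to 0.02 between pools. With limma and adjusted p in place of array agreement, 3 members were higher in treated than in control without a replicate block (ASNS, SLC7A11 and PPP1R15A) and 1 with the replicate block (SLC7A11). For opposite side minus control these counts were 1 and 0, and for treated minus opposite side 1 and 1 (PPP1R15A). Over all genes limma called 1042 in either direction for treated minus control without the block and 472 with it, 940 and 318 for opposite side minus control, and 643 and 132 for treated minus opposite side.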
